A study of Mus musculus with 20 samples.

Results

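Cdk4, Cdk6, Cdk2 and the cyclins Ccnd2, Ccnd3, Ccne1 and Ccne2 are the kinases and cyclins of the G1 phase described here, 7 of the 30142 genes measured on 20 whole-transcript arrays of mouse tissue. They were chosen by gene symbol. Each of the 7 had a single row in the deposited table whose annotation gives exactly 1 symbol. The row of Ccnd1 also carries the symbol of a microRNA, so it does not meet the rule and was not analysed here. The tissues came from CKO mice of the FVB/N background, which carry floxed alleles, that of Rb (Rb1) among them, and are p107-/- (Rbl1), and these alleles are shared by the controls. The groups were 4 metastases, 1 sample titled PALBO-MET (palbo metastasis), 3 treated bladders, 7 tumour bladders and 5 normal bladders. Tumours were induced by an adenovirus that codes for Cre recombinase, put into the bladder. The treated bladders had the same virus, and their mice had a Cdk4/6 inhibitor, palbociclib, at 150 mg/kg each day for 28 days with 6 mg/kg of the platinum compound CDDP each week. For the normal bladders the labels name no inoculation. The labels give no age, no sex, no site of a metastasis, no promoter for the viral Cre and no word on whether arrays came from separate mice, so p-values measure the spread between these arrays, which may be in part technical. The treatment of the palbo metastasis is given by its title alone.

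In early G1, D-type cyclins bind Cdk4 or Cdk6, and the active kinase phosphorylates the retinoblastoma protein Rb, which then lets go of the E2F transcription factors. E2F turns on genes of DNA replication and also the E-type cyclins, which bind Cdk2 and drive further Rb phosphorylation and entry into S phase. Palbociclib blocks the kinase activity of Cdk4 and Cdk6, and Rb is the substrate through which this block is best known to stop the cell cycle. An expression array reads RNA, not kinase activity.

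Values are log2 levels, so a difference of 1 is a doubling. Array medians lay between 5.11 and 5.48. The arrays fell into 2 kinds across the groups. On 8 low-contrast arrays (metastases 3 and 4, tumour bladders 3, 4 and 5, normal bladders 4, 5 and 6), lists of marker genes hardly differed. There the mean of 7 luminal urothelium markers lay between 7.05 and 7.26, against 4.78 to 10.78 on the 12 remaining arrays, and that of 7 smooth muscle markers between 6.84 and 7.07, against 4.99 to 10.24. No treated bladder is among the 8. Differences are therefore also given over the 12 and over the 8 arrays. The 12 hold normal bladders 1 and 2, where Xist, a transcript of the silenced X, reached 11.74 and 11.71, while it lay between 5.43 and 5.86 on the metastases and tumour bladders among the 12, so sex and group cannot be told apart between these. In treated bladders 1, 2 and 3, also among the 12, Xist was at 7.10, 6.04 and 10.05, and in the palbo metastasis at 6.44. The urothelial list was at 4.78 on the palbo metastasis and at 5.33 on tumour bladder 6, its lowest levels on the 20 arrays. Genes of other tissues stood out on single arrays: 5 liver genes averaged 8.06 on metastasis 2 and 4.84 to 5.80 elsewhere, and 5 skeletal muscle genes 8.95 on treated bladder 1 and 5.23 to 6.86 elsewhere. Rb1 ran from 5.44 to 6.45 and Rbl1 from 6.02 to 8.30. Whether their probes fall inside the deleted stretches is unknown, so these levels check no deletion. In such bulk samples, fewer cells of a type and less RNA per cell cannot be told apart.

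**Figure D1:**
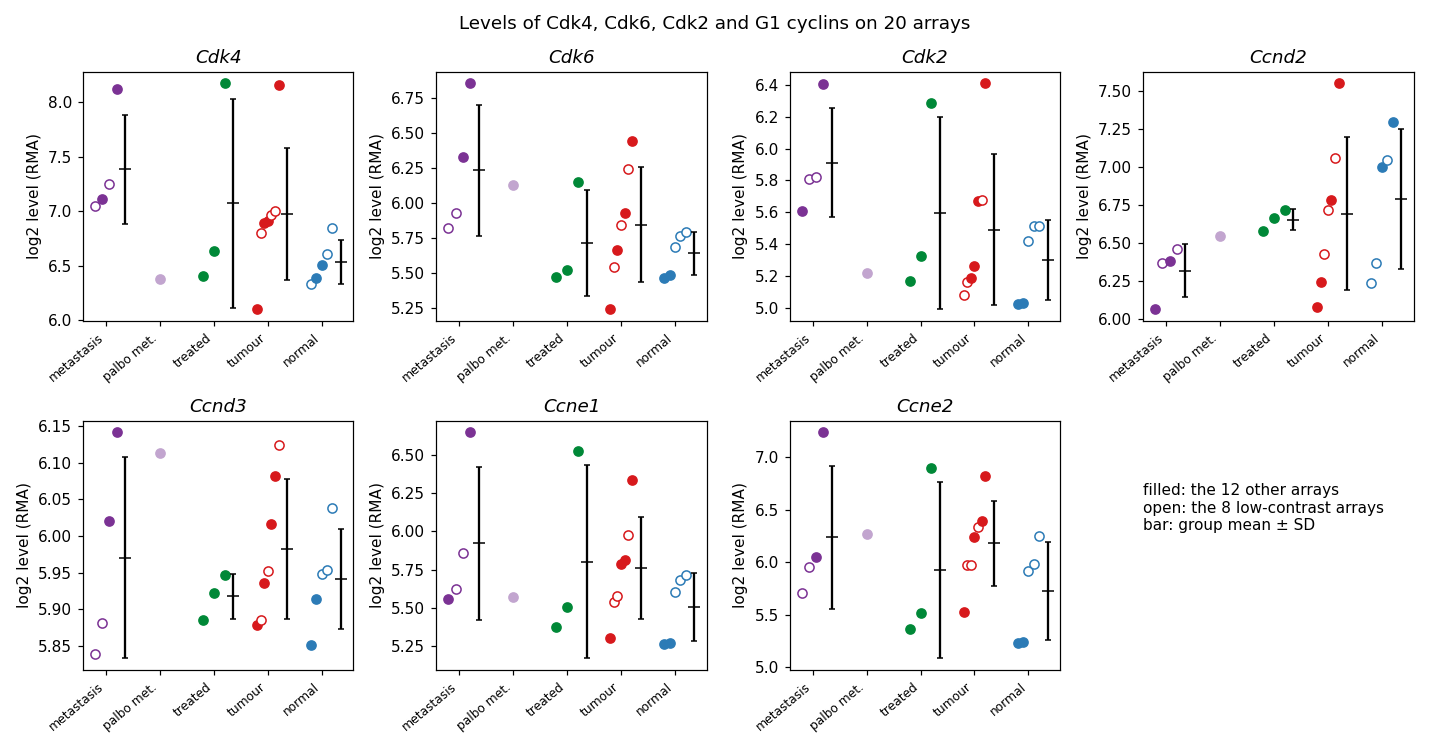
Log2 levels (vertical axis) of the 7 genes by group (horizontal axis), 1 point per array, with the group mean ± SD as a bar; open points are the 8 low-contrast arrays. For Cdk4, Cdk6 and Cdk2 all 4 metastases lie above all 5 normal bladders, and single arrays of the metastasis, treated and tumour groups reach the top of the Cdk4, Cdk2, Ccne1 and Ccne2 panels.

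Cdk4, the kinase partner of D-type cyclins and a target of palbociclib, was at 8.13, 7.11, 7.04 and 7.25 in metastases 1 to 4, against 6.51, 6.39, 6.60, 6.33 and 6.85 in normal bladders 1, 2, 4, 5 and 6. The 2 groups did not overlap. In treated bladders 1, 2 and 3 Cdk4 was at 6.63, 6.40 and 8.18, and in the 7 tumour bladders its lowest, median and highest levels were 6.10, 6.91 and 8.16. Treated bladders 1 and 2 lay within the range of the normal bladders, and treated bladder 3 lay above every other array. The palbo metastasis, at 6.38, was below each of the 4 metastases. By group mean the order was metastasis (7.38 ± 0.50, SD, n = 4), treated (7.07 ± 0.96, SD, n = 3), tumour (6.98 ± 0.61, SD, n = 7) and normal (6.53 ± 0.20, SD, n = 5), and no neighbours in this order differed by more than the larger of their SDs.

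Cdk6, the other kinase that D-type cyclins activate and the second target of palbociclib, was at 6.86, 6.33, 5.82 and 5.93 in the metastases, against 5.49, 5.46, 5.69, 5.76 and 5.80 in the normal bladders. Again the groups did not overlap, but metastasis 3 (5.82) and normal bladder 6 (5.80) were close. In the treated bladders it was at 5.52, 5.47 and 6.15, and in the tumour bladders its lowest, median and highest levels were 5.24, 5.85 and 6.45. The palbo metastasis was at 6.13, inside the range of the metastases. The order of the means was metastasis (6.23 ± 0.47, SD, n = 4), tumour (5.84 ± 0.41, SD, n = 7), treated (5.71 ± 0.38, SD, n = 3) and normal (5.64 ± 0.15, SD, n = 5), with no neighbours further apart than their SDs. Unlike Cdk4, which had its highest level in a treated bladder, Cdk6 was highest in metastasis 1 and next in tumour bladder 6 (6.45).

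Cdk2, the partner of E-type cyclins, was at 6.41, 5.61, 5.82 and 5.81 in the metastases, against 5.03, 5.03, 5.52, 5.42 and 5.51 in the normal bladders, again without overlap. In the treated bladders it was at 5.17, 5.33 and 6.28, and in the tumour bladders its lowest, median and highest levels were 5.08, 5.26 and 6.41. The palbo metastasis, at 5.22, was below the lowest metastasis. Of the 7 tumour bladders 4 lay inside the range of the normal bladders and 3 above it. Normal bladders 1 and 2 and tumour bladder 5 lay under 5.10, the level used to leave out dim genes in an alternative fit. Cdk2 averaged 5.53 over all arrays, above that level. By group mean the order was metastasis (5.91 ± 0.34, SD, n = 4), treated (5.59 ± 0.60, SD, n = 3), tumour (5.49 ± 0.47, SD, n = 7) and normal (5.30 ± 0.25, SD, n = 5), and no neighbours differed beyond their SDs.

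The promoter windows of the 3 kinases, the members that lay higher in every metastasis than in every normal bladder, are shown; their RNA levels also went together across the arrays (Cdk4 with Cdk2 at r = 0.87, Cdk4 with Cdk6 at r = 0.79 and Cdk6 with Cdk2 at r = 0.79 over 20 arrays, given as a description). They are RefSeq windows of build GRCm38.p6 from 250 bases before to 50 bases after an annotated start. For Cdk4 and Cdk2 this is the start of the gene. The Cdk6 gene starts at chr5:3341004, before its window, so that window lies inside the gene. For 5 of the 7 genes the table holds a window. The Cdk4 window lies at chr10:127063285-127063584 (plus strand), that of Cdk6 at chr5:3343643-3343942 (plus strand) and that of Cdk2 at chr10:128705002-128705301 (minus strand). Capitals mark CACGTG, the E-box that Myc and its partner Max are known to bind, and TTTCCCGC or its reverse complement GCGGGAAA, a form of the E2F motif.
Cdk4: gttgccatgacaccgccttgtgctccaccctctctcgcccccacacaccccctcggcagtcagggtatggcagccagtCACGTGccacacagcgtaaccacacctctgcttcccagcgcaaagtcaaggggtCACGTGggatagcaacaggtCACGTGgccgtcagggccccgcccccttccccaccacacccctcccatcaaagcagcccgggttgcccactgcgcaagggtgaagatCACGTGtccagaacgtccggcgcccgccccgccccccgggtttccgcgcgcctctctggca
Cdk6: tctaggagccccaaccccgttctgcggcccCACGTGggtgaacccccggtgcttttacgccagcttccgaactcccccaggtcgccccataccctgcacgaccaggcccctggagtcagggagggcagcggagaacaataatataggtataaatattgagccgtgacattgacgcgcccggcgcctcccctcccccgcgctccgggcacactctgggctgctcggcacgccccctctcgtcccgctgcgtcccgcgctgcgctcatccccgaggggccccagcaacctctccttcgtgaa
Cdk2: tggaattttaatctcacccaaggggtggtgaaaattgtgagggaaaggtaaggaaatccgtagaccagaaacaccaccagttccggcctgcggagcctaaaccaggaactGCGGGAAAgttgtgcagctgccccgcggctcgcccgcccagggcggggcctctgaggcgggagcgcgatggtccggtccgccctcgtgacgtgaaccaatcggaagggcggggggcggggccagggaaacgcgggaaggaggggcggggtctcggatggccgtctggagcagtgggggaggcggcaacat
The Cdk4 window holds 4 copies of CACGTG, which reads the same on both strands, the Cdk6 window 1 and the Cdk2 window 0. Of 32851 windows of the same length, 7.15% hold at least 1 copy and 8 (0.0244%) hold 4 or more. The Cdk2 window holds 1 copy of TTTCCCGC, which 1.07% of windows hold on either strand. The Ccne1 window and both Ccnd3 windows, not printed, hold 0 copies of each motif searched, and Ccne1 went with Cdk2 at r = 0.84. TTTGGCGC, another E2F form, was in none of the windows of the 5 genes and is in 0.514% of all. The searched motifs do not overlap each other in these windows. The motifs were chosen after the sequences had been read, and a match is a description of letters, not of binding.

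Among the D-type cyclins, Ccnd2 was at 6.38, 6.06, 6.37 and 6.46 in the metastases, against 7.30, 7.001, 6.37, 6.23 and 7.04 in the normal bladders. The groups overlapped through normal bladders 4 and 5. In the treated bladders it was at 6.66, 6.71 and 6.58, and in the tumour bladders its lowest, median and highest levels were 6.08, 6.72 and 7.55. All 3 treated bladders lay close together (SD 0.068), inside the tumour range, and the palbo metastasis was at 6.54. The highest level was that of tumour bladder 7, where the mean of the urothelial markers (10.78) and of the smooth muscle markers (10.24) was also highest. By group mean the order was normal (6.79 ± 0.46, SD, n = 5), tumour (6.69 ± 0.51, SD, n = 7), treated (6.65 ± 0.068, SD, n = 3) and metastasis (6.32 ± 0.17, SD, n = 4). The last neighbours in this order, treated bladders and metastases, lay further apart than either SD. This pair was noticed once the means were ordered and was not tested. The share of all genes that separate these groups was not counted.

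Ccnd3, the other D-type cyclin described here, was nearly level. It was at 6.02, 6.14, 5.84 and 5.88 in the metastases, 6.11 in the palbo metastasis, 5.89, 5.92 and 5.95 in the treated bladders and 5.91, 5.85, 5.95, 5.95 and 6.04 in the normal bladders. In the tumour bladders its lowest, median and highest levels were 5.88, 5.95 and 6.12. Its SD over the 20 arrays was 0.094, and 1.41% of the 30142 genes had a smaller one. Cdk4, at an SD of 0.61, was at the other end, above 93.9% of genes. The 4 replicated groups all overlapped one another for Ccnd3, while the single palbo metastasis lay above the treated and the normal bladders.

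Ccne1, which activates Cdk2 at the end of G1, was at 6.65, 5.56, 5.62 and 5.86 in the metastases, against 5.26, 5.27, 5.68, 5.60 and 5.72 in the normal bladders. In the treated bladders it was at 5.37, 5.50 and 6.53, and in the tumour bladders its lowest, median and highest levels were 5.30, 5.79 and 6.34. The groups overlapped in each pairing, and the palbo metastasis (5.57) lay among the metastases and among the normal bladders. By group mean the order was metastasis (5.92 ± 0.50, SD, n = 4), treated (5.80 ± 0.64, SD, n = 3), tumour (5.76 ± 0.34, SD, n = 7) and normal (5.50 ± 0.22, SD, n = 5), with no neighbours further apart than the larger of their SDs.

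Ccne2, the second E-type cyclin, was at 7.24, 6.05, 5.95 and 5.70 in the metastases, against 5.23, 5.24, 5.98, 5.92 and 6.25 in the normal bladders. In the treated bladders it was at 5.51, 5.37 and 6.89, and in the tumour bladders its lowest, median and highest levels were 5.53, 6.24 and 6.82. Treated bladders 1 and 2 lay below all 7 tumour bladders, while treated bladder 3 lay above all 7. The palbo metastasis was at 6.27, above 3 of the 4 metastases. The order of the means was metastasis (6.24 ± 0.68, SD, n = 4), tumour (6.18 ± 0.41, SD, n = 7), treated (5.93 ± 0.84, SD, n = 3) and normal (5.73 ± 0.46, SD, n = 5), again with no neighbours beyond the larger SD.

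The same 3 arrays were at the top for most of these genes. Metastasis 1, treated bladder 3 and tumour bladder 6, each from a different group, held the 3 highest levels of Cdk4 (8.13, 8.18 and 8.16), Cdk2 (6.41, 6.28 and 6.41), Ccne1 (6.65, 6.53 and 6.34) and Ccne2 (7.24, 6.89 and 6.82). For Cdk6 they held places 1, 5 and 2, with metastasis 2 (6.33) and tumour bladder 3 (6.24) between them. They did not lead for Ccnd2, where they were at 6.38, 6.58 and 6.78, nor for Ccnd3, where they were at 6.02, 5.95 and 5.88. Mki67, the gene of the proliferation antigen Ki-67, was at 8.96, 8.67 and 8.25 on these arrays and at 4.59 to 7.20 on the other 17. The mean of 29 S-phase and E2F target genes was at 6.57, 6.44 and 6.44 there, and that of 29 G2/M genes at 6.65, 6.39 and 6.46, the 3 highest of 20 for both lists. These 3 were picked with their values in view and are not a group of the study, so no average or test is given over them. All 3 belong to the 12 arrays of full contrast. Their array medians, 5.13, 5.11 and 5.12, were also the 3 lowest of 20. Metastasis 1 and tumour bladder 6 were each nearest to the other by deviations from row means over 5317 bright rows (r = 0.48). The part of these traits in the shared high levels was not tested. By marker lists the 3 arrays differed. The urothelial list was at 5.49, 9.01 and 5.33, the macrophage list at 8.97, 6.02 and 7.41, and the neutrophil list at 6.94, 5.15 and 8.89.

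**Figure D2:**
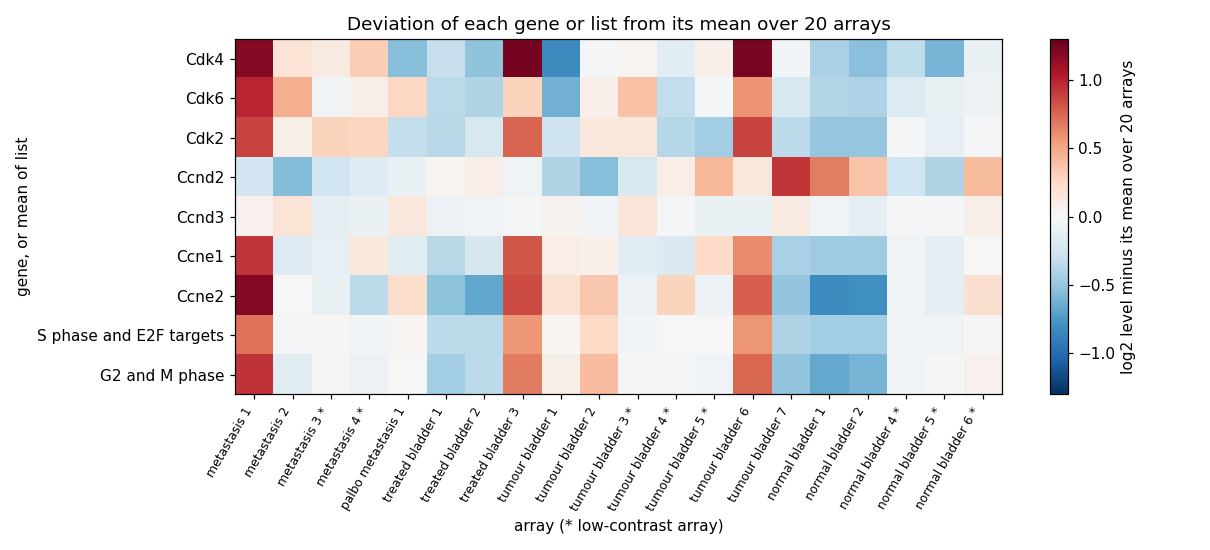
Deviation of each of the 7 genes, and of the mean of the S-phase and G2/M lists, from its own mean over 20 arrays (colour, log2 scale), with arrays by group along the horizontal axis and low-contrast arrays starred. Metastasis 1, treated bladder 3 and tumour bladder 6 are red for Cdk4, Cdk2, Ccne1, Ccne2 and both lists, while normal bladders 1 and 2 are blue for these and red for Ccnd2.

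Metastases were compared with normal bladders, to ask how the spread disease differs from the tissue of origin. Cdk4, Cdk6 and Cdk2 lay higher in every metastasis than in every normal bladder, by 0.85 (1.80-fold), 0.59 (1.51-fold) and 0.61 (1.53-fold) on average. The 95% intervals were 0.092 to 1.60, 0.099 to 1.09 and 0.051 to 1.17. Thus 3 of 7 members did not overlap, all higher, where 1.06% of all genes were higher and 1.79% lower without overlap. For each of the 3 genes the 2-sided exact permutation test gave p = 0.0079, the smallest that its 126 splits allow. No split gives a higher difference than a split without overlap, so this p largely restates the lack of overlap. Over the 7 genes and 5 comparisons 35 such tests were made, and these p-values are unadjusted. By limma with Benjamini-Hochberg adjustment over all genes, 0 of 7 members passed 0.05 (adjusted p = 0.72 for each of the 3 kinases), and 0.0% of all genes did; 3 of 7 members, the same kinases, had an unadjusted p under 0.05 by limma, as had 2082 genes (6.91%), 3.1% of all genes being higher.

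Ccne1 was at 5.92 ± 0.50 in metastases and 5.50 ± 0.22 in normal bladders (SD, n = 4 and 5), a difference of 0.42 with 4 of 4 metastases above the normal mean. Ccne2 was at 6.24 ± 0.68 in metastases and 5.73 ± 0.46 in normal bladders, a difference of 0.51 with 3 of 4 above. Ccnd2 differed by -0.47 (95% interval -1.01 to 0.071) with 0 of 4 metastases above the normal mean, and Ccnd3 by 0.029. By limma these 4 genes had an adjusted p of 0.76, 0.79, 0.74 and 0.97. Over the 12 arrays, with 2 metastases and 2 normal bladders, the differences were 1.17 for Cdk4, 1.12 for Cdk6, 0.98 for Cdk2, 0.84 for Ccne1, 1.41 for Ccne2 and -0.93 for Ccnd2. Over the 8 low-contrast arrays they were 0.56, 0.13, 0.33, 0.074, -0.22 and -0.13, so the Ccne2 difference had the opposite sign there. For Cdk2, both normal bladders among the 12 arrays lay under the dim level of 5.10. Without metastasis 1 the Cdk6 difference was 0.39, that of Ccne1 0.17 and that of Ccne2 0.18. The macrophage markers averaged 6.60 to 8.97 in metastases and 5.71 to 6.99 in normal bladders, and the smooth muscle markers 5.68 to 6.95 in metastases and 7.03 to 9.10 in normal bladders. Their part in these differences was not tested.

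**Figure D3:**
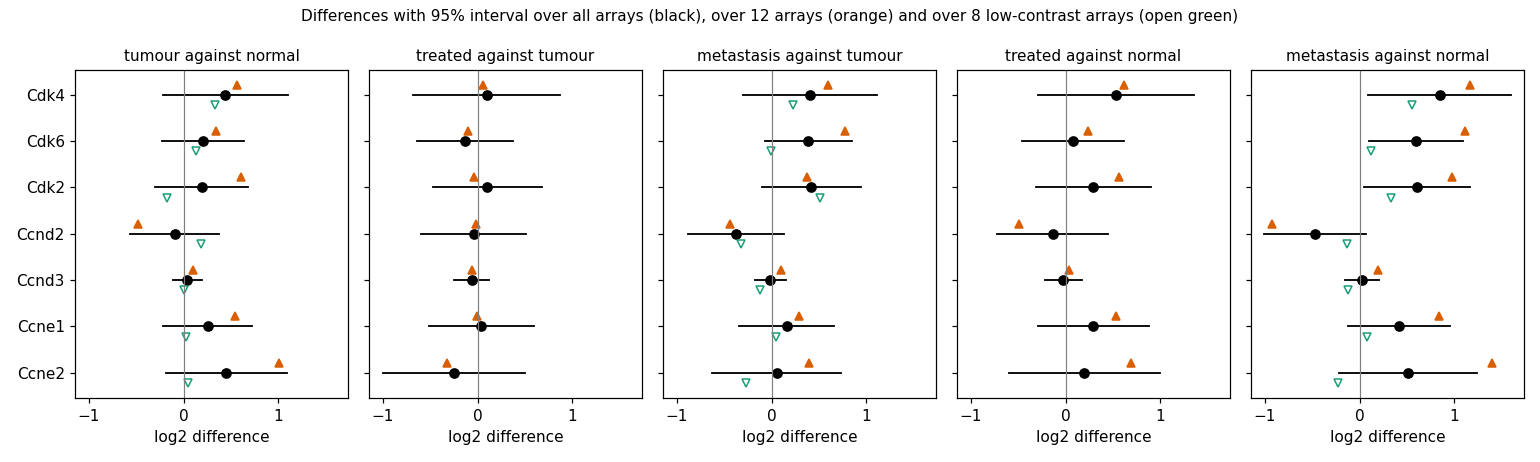
Log2 difference (horizontal axis) of each gene (vertical axis) in 5 comparisons, the first-named group minus the second. Black points and lines give the difference and 95% interval over all arrays, orange triangles the difference over the 12 arrays, and open green triangles that over the 8 low-contrast arrays; only Cdk4, Cdk6 and Cdk2 in metastases against normal bladders have intervals that leave out 0.

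Tumour bladders were compared with normal bladders, to ask what differs in the bladder after Cre. Cdk4 averaged 6.98 ± 0.61 in tumour and 6.53 ± 0.20 in normal bladders (SD, n = 7 and 5), a difference of 0.44 (95% interval -0.22 to 1.10), with 5 of 7 tumour bladders above the highest normal bladder and tumour bladder 1 below the lowest. Ccne2 averaged 6.18 ± 0.41 in tumour and 5.73 ± 0.46 in normal bladders, a difference of 0.45 (-0.18 to 1.09) with 6 of 7 above the normal mean. Ccne1 differed by 0.26, Cdk6 by 0.20, Cdk2 by 0.19, Ccnd3 by 0.041 and Ccnd2 by -0.094. By limma 0 of 7 members passed (adjusted p = 0.998 for each) and 0.0% of all genes did, with 0 members at an unadjusted p under 0.05 and 1281 genes (4.25%), 2.39% of all genes being higher. No member was free of overlap, where 0.0829% of all genes were higher without overlap and 0.0829% lower. The exact permutation p was 0.143 for Cdk4 and 0.107 for Ccne2, the smallest of the 7. Over the 12 arrays Ccne2 differed by 1.01, Cdk2 by 0.60, Cdk4 by 0.57, Ccne1 by 0.55 and Ccnd2 by -0.49; over the 8 arrays by 0.043, -0.18, 0.33, 0.030 and 0.19, so Cdk2 and Ccnd2 turned. Without tumour bladder 6 the Cdk2 difference was 0.038, that of Cdk4 0.24, that of Cdk6 0.10 and that of Ccne1 0.16, and without normal bladder 1 that of Ccnd2 was 0.033.

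The effect of palbociclib with CDDP was addressed by setting treated against tumour bladders. No difference in the RNAs of the drug's targets was detected. Cdk4 averaged 7.07 ± 0.96 in treated and 6.98 ± 0.61 in tumour bladders (SD, n = 3 and 7), a difference of 0.096 with an interval of -0.68 to 0.87, and Cdk6 5.71 ± 0.38 in treated and 5.84 ± 0.41 in tumour bladders, a difference of -0.13 (-0.64 to 0.38). Ccne2 differed by -0.25 (-1.01 to 0.50), Cdk2 by 0.10, Ccnd3 by -0.064, Ccnd2 by -0.042 and Ccne1 by 0.040. For 6 of the 7 genes 1 of 3 treated bladders lay above the tumour mean, and for Ccnd3 0 of 3 did. By limma 0 of 7 members passed (adjusted p = 0.99995 for each) and 0.0% of all genes, with 0 members at an unadjusted p under 0.05 and 103 genes (0.342%), 0.182% of all genes being higher. No member was free of overlap, where 0.073% of genes were higher and 0.0564% lower without overlap.

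Treated bladder 3 decided the direction of several of these values. Without it, the differences from tumour bladders were -0.46 for Cdk4, -0.35 for Cdk6, -0.24 for Cdk2, -0.33 for Ccne1 and -0.74 for Ccne2. Without treated bladder 2 Cdk4 differed by 0.43 and Ccne2 by 0.025, and without treated bladder 1 Cdk2 differed by 0.31 and Ccne1 by 0.26. Without tumour bladder 1 the Cdk4 difference was -0.051, and without tumour bladder 7 that of Ccnd2 was 0.10. Over the 12 arrays, with 4 tumour bladders, the differences were 0.055 for Cdk4, -0.10 for Cdk6, -0.038 for Cdk2, -0.0087 for Ccne1 and -0.32 for Ccne2. Treated bladder 3 also had the highest basal and squamous epithelial markers (6.74) of the 20 arrays and a urothelial list of 9.01.

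Metastases were compared with tumour bladders. Cdk2 averaged 5.91 ± 0.34 in metastases and 5.49 ± 0.47 in tumour bladders (SD, n = 4 and 7), a difference of 0.42 (-0.10 to 0.94) with 4 of 4 metastases above the tumour mean. Cdk4 differed by 0.41 (-0.30 to 1.11) with 4 of 4 above, Cdk6 by 0.39 (-0.073 to 0.85) with 3 of 4 above, and Ccnd2 by -0.38 (-0.88 to 0.13) with 0 of 4 above. Ccne1 (0.16), Ccne2 (0.057) and Ccnd3 (-0.011) were nearer to 0. By limma 0 of 7 members passed (adjusted p from 0.86 for Cdk6 and Cdk2 to 0.99 for Ccnd3), with 0.0% of all genes passing, and 0 members were at an unadjusted p under 0.05, against 1745 genes (5.79%), 2.42% of all genes being higher. No member was free of overlap, where 0.123% of genes were higher and 0.382% lower without overlap. Over the 12 arrays Cdk6 differed by 0.77 and over the 8 by -0.0031, while Cdk2 differed by 0.38 and 0.51 and Ccnd2 by -0.44 and -0.32. Without metastasis 1 the differences were 0.16 for Cdk4, 0.18 for Cdk6 and 0.26 for Cdk2, and those of Ccne1 and Ccne2 turned to -0.082 and -0.28.

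Treated bladders were also compared with normal bladders. Cdk4 averaged 7.07 ± 0.96 in treated and 6.53 ± 0.20 in normal bladders (SD, n = 3 and 5), a difference of 0.54 (-0.29 to 1.36) that was -0.016 without treated bladder 3. Cdk2 (0.29), Ccne1 (0.30), Ccne2 (0.20) and Cdk6 (0.075) also turned without that array, to -0.052, -0.069, -0.28 and -0.14. Ccnd2 differed by -0.14 and Ccnd3 by -0.023. By limma 0 of 7 members passed (adjusted p = 0.99997 for each), 0.0% of all genes did, and 0 members had an unadjusted p under 0.05, against 108 genes (0.358%), 0.209% of all genes being higher. No member was free of overlap, where 0.332% of genes were higher and 0.318% lower without overlap. The comparisons share arrays, so their values are set side by side and not counted together.

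The single palbo metastasis allows no test. It lay below all 4 metastases for Cdk4 (6.38) and Cdk2 (5.22), above all 4 for Ccnd2 (6.54), and within their range for Cdk6 (6.13), Ccnd3 (6.11), Ccne1 (5.57) and Ccne2 (6.27). Its macrophage list was at 8.50 and its neutrophil list at 8.31, while the neutrophil list ran from 6.30 to 6.94 in the metastases.

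The other genes of the pathway were taken from lists, and no member of any list passed by limma in any of the 5 comparisons. In metastases against normal bladders, 28 of 29 measured S-phase and E2F target genes were higher, with a median difference of 0.33, and 28 of 29 G2/M genes, with a median of 0.36, beside a median of -0.013 over all genes. Of the 13 pocket proteins and E2F factors 10 were higher (median 0.25), of the 7 CDK inhibitors 4 (median 0.22), of the 8 genes of CDK activation 7 (median 0.14) and of the 8 measured genes of cyclin turnover 7 (median 0.15). In treated against tumour bladders, 28 of 29 S-phase genes and 26 of 29 G2/M genes were lower, with medians of -0.090 and -0.12 beside -0.023 over all genes. The list means overlapped. The S-phase list ran from 5.52 to 6.44 in treated and 5.47 to 6.44 in tumour bladders, the G2/M list from 5.28 to 6.39 and 5.20 to 6.46. Treated bladder 3 held the highest treated level of both lists. Mki67 differed by -0.27, by -1.40 without treated bladder 3 and by 0.36 without treated bladder 2. In the same comparison 7 of 7 luminal urothelium markers (median difference 0.91) and 7 of 7 smooth muscle markers (0.94) were higher, and 7 of 7 macrophage markers (-0.39) and 6 of 6 neutrophil markers (-0.41) lower. None of these markers passed, and their part in the result was not tested. In tumour against normal bladders, 28 of 29 S-phase and 29 of 29 G2/M genes were higher, with medians of 0.24 and 0.28 beside 0.012. There 7 of 7 smooth muscle markers (median difference -0.95) and 7 of 7 luminal urothelium markers (-0.66) were lower, and 6 of 6 neutrophil markers (0.46) and 7 of 7 macrophage markers (0.25) higher, again with none passing and their part not tested. Mcm2 of the S-phase list differed in this comparison by 0.76 over the 12 arrays and by 0.15 over the 8. Mki67 of the G2/M list differed by 2.24 and 0.0056. Genes of a list share these arrays, so the counts are not separate findings. In metastases against tumour bladders 21 of 29 and 20 of 29 were higher (medians 0.11 and 0.077), and in treated against normal bladders 25 of 29 and 28 of 29 (medians 0.16 and 0.18).

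Ccna2, the cyclin that takes over Cdk2 in S phase, averaged 6.51 ± 0.69 in metastases and 5.66 ± 0.38 in normal bladders (SD, n = 4 and 5), a difference of 0.85 with an adjusted p of 0.72 by limma. Mcm2, a subunit of the replicative helicase, differed by 0.57 and E2f1, an activating E2F factor, by 0.30 in the same comparison. Without metastasis 1 the differences were 0.51 for Ccna2, 0.35 for Mcm2 and 0.11 for E2f1, and over the 8 low-contrast arrays they were 0.17, 0.13 and -0.013. Cdkn2a, whose products include a protein inhibitor of Cdk4 and Cdk6, averaged 6.60 ± 0.41 in tumour and 5.90 ± 0.37 in normal bladders (SD, n = 7 and 5), with 6 of 7 tumour bladders above the highest normal bladder and an adjusted p of 0.998 by limma. In metastases it was at 6.48 ± 0.39 (SD, n = 4) and in treated bladders at 6.15 ± 0.35 (SD, n = 3).

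Across the 20 arrays the E-type cyclins followed the cell cycle genes more closely than Ccnd2 and Ccnd3 did. This is a description with no test of the difference. Ccnd1 was not analysed, and Ccnd3 varied little over the arrays (SD 0.094). Of 17591 other named genes, Mki67 had the pattern most like Ccne2 (Pearson r = 0.97, Spearman rho = 0.91), followed by the kinetochore gene Knl1 (r = 0.96) and the spindle motor Kif11 (r = 0.96). Among the 300 genes most like Ccne2 were 27 of the 29 G2/M genes and 21 of the 29 S-phase genes. For Ccne1 the nearest were Prc1, which bundles microtubules of the central spindle (r = 0.96), the condensin subunit Ncaph (r = 0.95) and the DNA ligase Lig1 (r = 0.94), with 22 of the 29 G2/M and 20 of the 29 S-phase genes among the 300 nearest. Cdk2 was nearest to Tmpo, a protein of the nuclear lamina (r = 0.92), to the mitotic kinase Cdk1 (r = 0.92) and to Cep55, which serves the last step of cell division (r = 0.91), with 18 G2/M and 13 S-phase genes among the 300 nearest. The G2/M list itself holds Mki67, Prc1 and Kif11.

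Cdk4 and Cdk6 also went with the cell cycle lists, though few of those genes were among their 300 nearest. All 29 G2/M genes and 28 of 29 S-phase genes had r above 0 with each, with a median r of 0.69 and 0.67 for Cdk4 and 0.68 and 0.63 for Cdk6, beside -0.03 over all genes for both. The pattern of Cdk4 was most like that of Caprin1, an RNA-binding protein (r = 0.94), Utp4, which serves ribosome assembly (r = 0.94), and the tubulin Tubb5 (r = 0.93), and 1 G2/M gene and 3 S-phase genes were among its 300 nearest. Cdk6 was nearest to the kinase Bmp2k (r = 0.95), the focal adhesion protein Tns3 (r = 0.95) and the lysosomal reductase Ifi30 (r = 0.90), with 1 G2/M gene and 6 S-phase genes among its 300 nearest, and its correlation with the macrophage list was r = 0.77. Ccnd2 was nearest to Tmem47 (r = 0.90), to Kcnmb1, a subunit of the potassium channel of smooth muscle (r = 0.84), and to Ldb2 (r = 0.83), and correlated with the endothelial list at r = 0.73 and the smooth muscle list at r = 0.69. Ccnd3 was nearest to Rhox11 (r = 0.83), Kif13b (r = 0.78) and Wfdc17 (r = 0.77), and of the G2/M and S-phase genes 0 were among its 300 nearest. These are the highest r of 17591 genes for a gene that varied little. How high r would run among unrelated genes was not tested.

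Most of these relations were closer over the 12 arrays of full contrast than over the 8. Ccne2 with Mki67 had r = 0.99 over the 12 and r = 0.61 over the 8 low-contrast arrays, and r = 0.95 over all arrays but metastasis 1 and treated bladder 3, the 2 farthest from the Ccne2 median. Ccne1 with Ccne2 had r = 0.87 over 20 arrays, 0.94 over the 12 and -0.43 over the 8. Cdk2 with Ccne1 had r = 0.84, 0.95 and -0.17, and Cdk4 with Cdk2 0.87, 0.94 and 0.36. Cdk6 with the macrophage list had r = 0.83 over the 12 and -0.29 over the 8, and Ccnd2 with the smooth muscle list 0.79 and -0.082, while Ccnd2 with the single smooth muscle gene Kcnmb1 had r = 0.83 over the 12 and 0.93 over the 8. Ccnd2 and Ccne2 had r = -0.41, -0.55 and 0.52. Points share the array, its contrast and its tissue make-up, and the part of each was not tested.

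**Figure D4:**
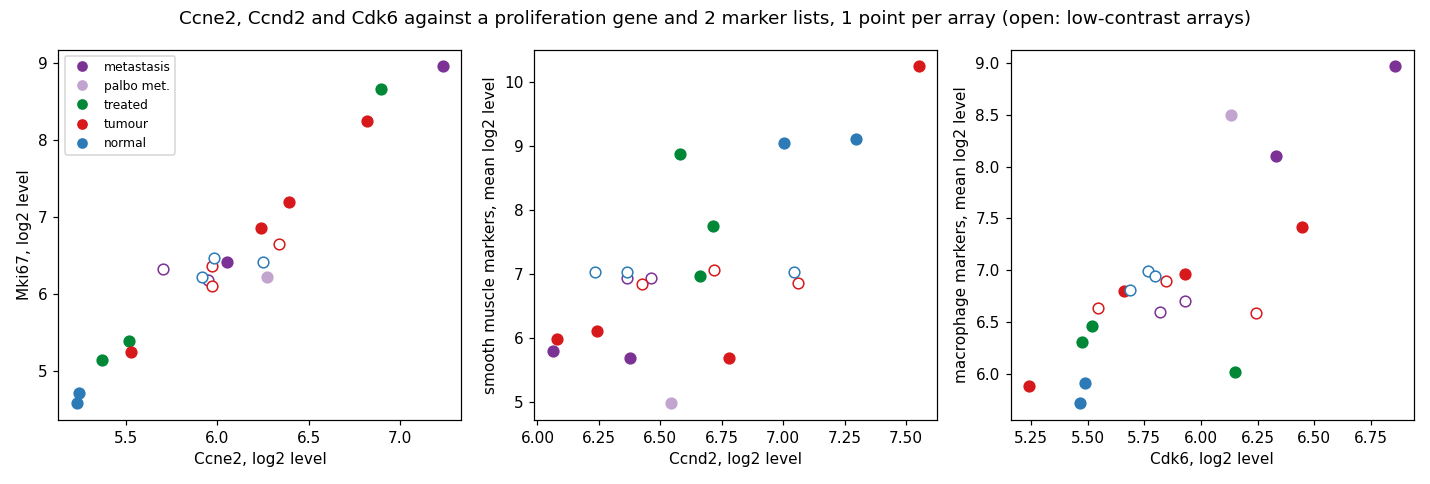
Ccne2 against Mki67, Ccnd2 against the mean of smooth muscle markers and Cdk6 against the mean of macrophage markers (log2 levels on both axes), 1 point per array, coloured by group and open for low-contrast arrays. The filled points lie along a rising line in each panel (r = 0.99, 0.79 and 0.83 over the 12), while the open points span a narrow range of the vertical axis.

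Genes next to Cdk4 on its chromosome varied in how they went with it. Of the 5 measured genes on each side in RefSeq order, Tspan31, the nearest on one side, correlated with it at r = 0.69 and the next highest, B4galnt1, at 0.38, while 6 of 10 were below 0. Eef1akmt3 was lowest at -0.61. Several of those below 0 were dim: Eef1akmt3, Cyp27b1, Marchf9 and Agap2 averaged 4.85, 4.69, 4.41 and 4.97. Genes under 5.10 were left out as dim in an alternative fit. The brightest neighbours, Tspan31, Os9 and Mettl1 (means 8.18, 6.90 and 6.22), had r of 0.69, 0.35 and 0.31. By Spearman rho Tspan31 (0.38) did not lead, being below B4galnt1 (0.43) and Os9 (0.42). Its r was 0.81 over the 12 arrays and 0.040 over the 8. For Cdk2 the highest of 10 neighbours was Pym1 at r = 0.75, and 6 of 10 had r below 0. These neighbours were chosen by position alone and are given as a description.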

How the data were processed

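Tissue RNA extracted with a kit for formalin-fixed material was hybridised to 20 Affymetrix whole-transcript arrays, each labelled from a small amount of total RNA, per the labels' protocols. The authors deposited log2 values made with RMA in Affymetrix Expression Console, per the submitters' processing notes, which give no version; base 2 is that of RMA. RMA corrects background and is meant to set all arrays to 1 distribution, so a level is relative to its array, and the number of arrays limits the precision. The deposited levels still differed between arrays, with medians from 5.11 to 5.48. Over all rows they ran from 2.16 to 22.00. Genome build and probe positions are not given in the sources used here.

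Of 65956 rows, 30604 carried exactly 1 symbol, 2146 several and 33206 none. For 355 genes with several rows the row of highest mean was kept, which left 30142 genes. Groups came from the sample titles. All 20 arrays entered 1 limma fit (limma 3.58.1, R 4.3.3) with Benjamini-Hochberg adjustment over all genes and a threshold of 0.05. The palbo metastasis was a group of its own in this fit and was not tested. Single genes were also tested by a 2-sided exact permutation test that went through all splits of the arrays. Spearman rho was computed with SciPy. On simulated data with the mean and SD of each gene, the fit for metastases against normal bladders recovered 71 of 100 genes changed by 1. Of those changed by 2 on the log2 scale it recovered 93 of 100. The simulated noise was normal and independent between genes, without low-contrast arrays or differences in tissue make-up. On the real arrays this fit called 0 genes, so these shares do not measure its power for the 7 genes. Arrays were called low-contrast where rows of mean 4.5 to 5.0 had an SD over 0.30 and no other array shared their deviations beyond r = 0.25 over 5317 bright rows. The 7 genes were named by the request, the other genes named are the 3 most alike by Pearson's r over 20 arrays among 17591 genes (predicted genes, small RNAs, pseudogenes and olfactory and vomeronasal receptors left out), the neighbours and a few pathway genes, and the members and lists were chosen with earlier results of these data known. Alternatives were array weights, a trended and robust prior, median centring, leaving out dim genes, means over rows, fits on 2 groups, the kind of array as a term or a subset, a block for replicate number, adding the palbo metastasis to the metastases, and dropping single arrays.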

Additional observations from a re-analysis of the deposited data

How the results depend on the processing

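Of 350 values of the 7 genes under alternatives that left out no single array, 330 kept their direction and their side of the threshold and 20 turned round, and no gene passed 0.05 in any (smallest adjusted p by limma 0.18, metastases against normal bladders). Within the low-contrast arrays, tumour against normal turned to -0.18 for Cdk2 and 0.19 for Ccnd2, metastasis against tumour to -0.0031 for Cdk6 and -0.27 for Ccne2, and metastasis against normal to -0.12 for Ccnd3 and -0.22 for Ccne2. Without these arrays, treated against tumour turned to -0.038 for Cdk2 and -0.0087 for Ccne1, and Ccnd3 to 0.10 in metastasis against tumour and 0.035 in treated against normal. With array weights, treated against tumour turned to -0.22 for Cdk4, -0.17 for Cdk2 and -0.23 for Ccne1, metastasis against tumour to 0.0041 for Ccnd3 and treated against normal to -0.0045 for Cdk6. With arrays centred on their medians, Ccnd2 turned to 0.017 in treated against tumour, and Ccnd3 to 0.047 in metastasis against tumour and 0.037 in treated against normal. With the palbo metastasis counted as a metastasis, Ccnd3 turned to 0.017 in metastasis against tumour. The cause was not tested. Deviations of same-numbered arrays from their group means correlated between -0.51 and 0.33. These values cannot tell whether the numbers mark shared mice. The low-contrast arrays were picked for sharing few deviations with any array, and the other arrays differ in tissue make-up. With the replicate number as a block, Ccnd2 turned to 0.16 in treated against tumour, and 0 genes were called in each comparison.

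By limma 0 genes were called in each comparison, with 3 exceptions. Metastasis against tumour and metastasis against normal each gave 3 genes without the low-contrast arrays (Ahsg, Ctsk and Lyz1), and metastasis against normal gave 1 (Gm3534) in a fit on these 2 groups; the names were looked up after the values were seen.

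With each array left out in turn, 326 of 350 values kept their direction and 24 turned. In tumour against normal Ccnd2 ran from -0.24 to 0.033. In treated against tumour Cdk4 ran from -0.46 to 0.43, Cdk2 from -0.24 to 0.31, Ccnd2 from -0.14 to 0.10, Ccne1 from -0.33 to 0.26 and Ccne2 from -0.74 to 0.025. In metastasis against tumour Ccnd3 ran from -0.068 to 0.032, Ccne1 from -0.082 to 0.28 and Ccne2 from -0.28 to 0.23. In treated against normal Cdk4 ran from -0.016 to 0.87, Cdk6 from -0.14 to 0.19, Cdk2 from -0.052 to 0.50, Ccnd3 from -0.046 to 0.0011, Ccne1 from -0.069 to 0.51 and Ccne2 from -0.28 to 0.48. In metastasis against normal Ccnd3 ran from -0.028 to 0.073.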
